A study of Mus musculus with 2 samples.

Results

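The genes of the voltage-gated sodium and calcium channels are described here as they were read in the left cerebral cortex of 14-day-old mice. They were chosen by symbol: sodium channel genes named Scn with a number and the letter a or b, and calcium channel genes whose symbol starts with Cacna, Cacnb or Cacng. The annotation holds 40 such genes among 55536 annotated genes. Of the 40, 33 had at least 1 read in either library, against 18510 of all genes, and 25 had 10 or more reads over both libraries, against 11339 of all genes.

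The study holds a single group of 2 long-read RNA libraries, both from female B6CASTF1/J mice, the F1 hybrid of a C57BL/6 and a CAST/EiJ parent, with 2 µg of RNA taken into each. They are labelled as biological replicates 1 and 2, with no treatment. The wording for replicate 1 leaves room for pooled females, and the donor entry is the same for both libraries. The tests below therefore compare these libraries and weigh counting error alone. A long read stands for 1 cDNA molecule, so levels are given as reads per 1000000 mouse reads (RPM), with spike-in reads left out and no division by transcript length. Replicate 1 held 1072344 mouse reads and replicate 2 held 753520, so 1 read is worth 0.933 and 1.33 RPM, and a gene with no read could have lain at up to 2.80 and 3.98 RPM (3 reads). These limits and all intervals cover counting error only.

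A voltage-gated sodium or calcium channel is built around a pore-forming subunit of a very long coding sequence, called alpha in sodium and alpha1 in calcium channels, which opens when the membrane depolarizes. Sodium channels start and carry the action potential, and calcium channels turn it into calcium entry at synapses, in dendrites and at the cell body. Smaller auxiliary subunits travel with the pore: beta subunits of sodium channels are membrane proteins with an immunoglobulin fold, calcium channel beta subunits sit on the cytoplasmic side, alpha2delta subunits on the outer face, and most of the gamma family in brain serve AMPA-type glutamate receptors instead of calcium channels. The cell composition of the cortex bears on all levels below, and in bulk tissue fewer cells of a type and less RNA per cell cannot be told apart. Markers of excitatory neurons summed to 4518 and 4155 RPM (5 of 5 genes with reads), those of inhibitory neurons to 486 and 418 RPM (7 of 7). The oligodendrocyte list fell from 5524 RPM in replicate 1 to 3294 in replicate 2, with 4 of its 5 genes called lower. Its part in any value below was not tested. The lists for skeletal muscle, heart, retina and cerebellum held between 0 and 14.6 RPM in a library, and Myh4, Tnnt3, Myl7, Tnni3, Pde6b, Pcp2 and Cbln3 had no read.

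Together the 40 genes took 1339 reads in replicate 1 and 943 in replicate 2, or 1249 and 1251 RPM (mean 1250 ± 1.98, SD, n = 2). Auxiliary subunits supplied most of these reads. By role, the 8 calcium gamma genes summed to 336 and 346 RPM and the 4 calcium beta genes to 171 and 157. The pore-forming genes were lower than these: the 10 sodium alpha genes gave 141 and 126 RPM and the 10 calcium alpha1 genes 119 and 146. The 4 alpha2delta genes, also auxiliary, were lower still at 50.4 and 45.1 RPM. Whether molecules of very long transcripts were recovered as well as short ones was not tested, and this limits comparison of levels between roles.

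**Figure D1:**
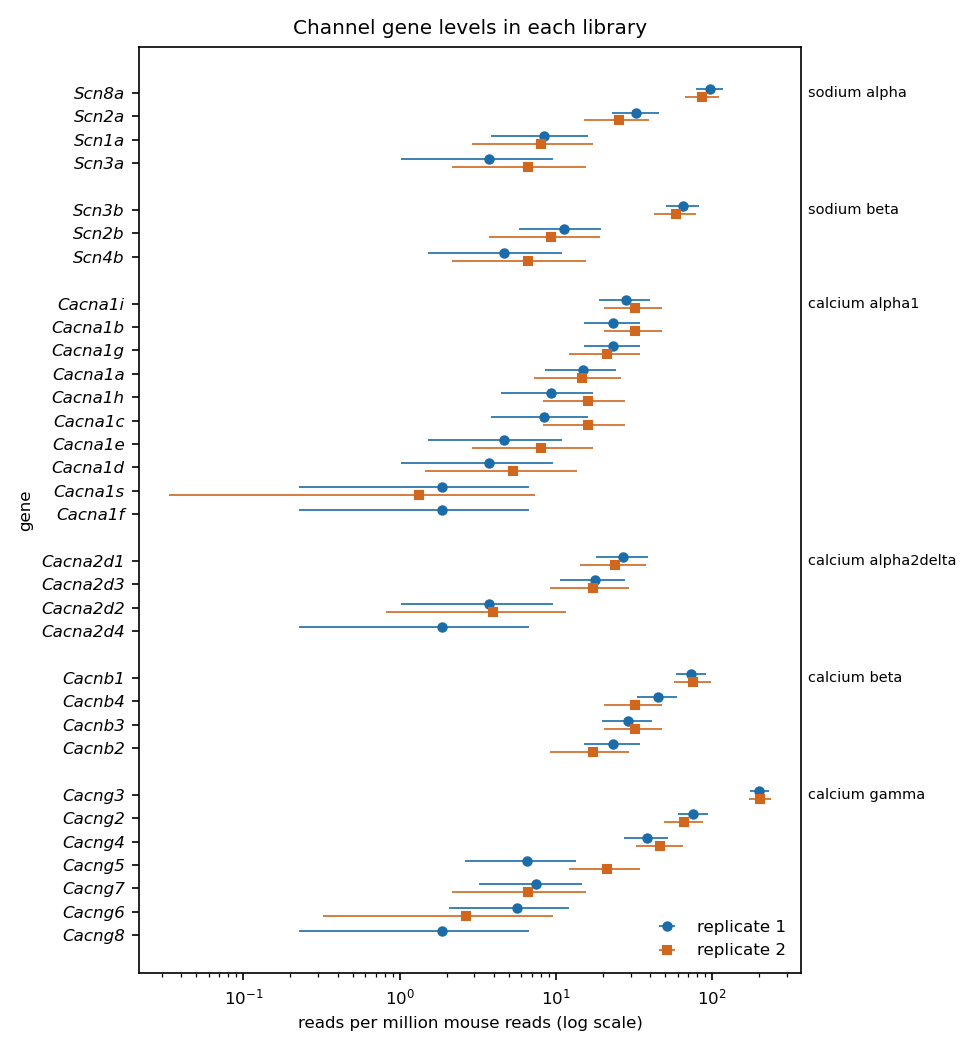
Level of 32 channel genes with reads, in RPM on a log axis, by role; circles are replicate 1, squares replicate 2, and bars are exact 95% Poisson intervals of the count. Cacng3 stood above every other gene shown in both libraries, and Cacna1f, Cacna2d4 and Cacng8 had reads in replicate 1 alone.

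Among the sodium channel alpha genes, Scn8a, whose channel serves the axon initial segment and the nodes of Ranvier of mature neurons, was the most read. Its level was 96.1 RPM (103 reads) in replicate 1 and 86.3 RPM (65 reads) in replicate 2. Scn2a, whose channel is the main one of immature and unmyelinated axons, had 32.6 RPM (35 reads) and 25.2 RPM (19 reads). Scn1a, the alpha subunit that fast-spiking inhibitory neurons depend on, had 8.39 RPM (9 reads) and 7.96 RPM (6 reads). Each of the 3 genes thus lay in its own range in both libraries, in the order Scn8a, Scn2a, Scn1a. Scn3a, known chiefly from the embryonic brain, had 4 and 5 reads. Scn4a, the skeletal muscle gene, Scn7a, and Scn9a, Scn10a and Scn11a, known from peripheral sensory neurons, had no read in either library.

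Among the sodium channel beta subunits, which modulate gating and cell adhesion, Scn3b had 65.3 RPM (70 reads) and 58.4 RPM (44 reads). The 2 beta subunits that form a disulfide bond with the pore were lower. Scn2b had 11.2 RPM (12 reads) and 9.29 RPM (7 reads), and Scn4b had 4.66 RPM (5 reads) and 6.64 RPM (5 reads).

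The calcium channel alpha1 genes lay at low levels, with means from 29.9 RPM (Cacna1i) down to 0.933 RPM (Cacna1f). With all reads counted, no gene stood out as Scn8a did among the sodium channels. The 3 genes of low-voltage-activated T-type channels were all read: Cacna1i at 28.0 RPM (30 reads) and 31.9 RPM (24 reads), and Cacna1g at 23.3 RPM (25 reads) and 21.2 RPM (16 reads). Cacna1h had 9.33 RPM (10 reads) and 15.9 RPM (12 reads). Of the genes for presynaptic channels, Cacna1b (N-type) had 23.3 RPM (25 reads) and 31.9 RPM (24 reads), and Cacna1a (P/Q-type) had 14.9 RPM (16 reads) and 14.6 RPM (11 reads). Cacna1c, an L-type channel that couples depolarization to transcription, had 8.39 RPM (9 reads) and 15.9 RPM (12 reads). Cacna1e, the R-type gene, had 4.66 RPM (5 reads) and 7.96 RPM (6 reads). The other L-type genes had under 10 reads: Cacna1d had 4 in each library, Cacna1s of skeletal muscle 2 and 1, and Cacna1f of the retina 2 and 0.

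Among the alpha2delta genes, Cacna2d1, whose protein binds gabapentin, had 27.0 RPM (29 reads) and 23.9 RPM (18 reads). Cacna2d3 had 17.7 RPM (19 reads) and 17.3 RPM (13 reads). Cacna2d2 had 4 and 3 reads and Cacna2d4 had 2 and 0. All 4 calcium beta genes were read, led by Cacnb1 at 73.7 RPM (79 reads) and 75.6 RPM (57 reads). Cacnb4 had 44.8 RPM (48 reads) and 31.9 RPM (24 reads), and Cacnb3 had 28.9 RPM (31 reads) and 31.9 RPM (24 reads). Cacnb2 had 23.3 RPM (25 reads) and 17.3 RPM (13 reads).

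In the gamma family, the genes for AMPA receptor partners held most reads. Cacng3 (ENSMUSG00000066189.9, chr7:122670492-122769393, plus strand) had 200.5 RPM (215 reads) and 203 RPM (153 reads), Cacng2 (stargazin) 75.5 RPM (81 reads) and 66.4 RPM (50 reads), and Cacng4 38.2 RPM (41 reads) and 46.4 RPM (35 reads). Cacng8, of the same subgroup, had 2 and 0 reads. Of the genes whose proteins act on AMPA receptors in another manner, Cacng7 had 7.46 RPM (8 reads) and 6.64 RPM (5 reads), and Cacng5 had 6.53 RPM (7 reads) and 21.2 RPM (16 reads). Cacng6 had 6 and 2 reads, and Cacng1, the gamma subunit of the skeletal muscle channel, had none.

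In the order of mean levels, Cacng3 above Scn8a was a clear step, separated in both libraries and in the 95% Poisson intervals. From Scn8a down to Scn4b, the intervals of every neighbouring pair overlapped. Between the libraries, none of the 25 genes with 10 or more reads differed by the two-sided exact binomial test with Benjamini-Hochberg adjustment over all 11339 genes tested. Over all genes, 0.882% were called. At an unadjusted p under 0.05 a single channel gene passed: Cacng5, higher in replicate 2 by 1.65 on the log2 scale with a pseudocount of 0.5 reads, at an adjusted p of 0.296. The 25 genes split into 12 higher and 13 lower in replicate 2, with a median log2 ratio of -0.012, beside -0.0035 for all genes.

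Pooled over reads, how much of each transcript was read differed between auxiliary and pore-forming subunits, with wide variation among the auxiliary genes. The authors put each read in a class: annotated transcript, incomplete splice match (a run of annotated exons that does not reach both ends), an unannotated combination of annotated splice sites, a splice site outside the annotation, or Genomic (within the gene, fitting no spliced transcript). Annotated transcripts took 53.0% of channel gene reads in replicate 1 and 54.1% in replicate 2, against 72.7% and 71.2% over all annotated genes. By role the pooled share was 67.0% for gamma and 34.2% for calcium beta genes. It was 13.4% for sodium alpha, 6.72% for alpha1 and 3.41% for alpha2delta genes. Cacng3 alone held 335 of the 416 annotated gamma reads. The median gene with 10 or more reads had 6.67% of its reads on annotated transcripts, beside 68.4% over all genes with as many reads. No annotated read was found for 8 of the 25 (32.0%, beside 6.63% of all such genes): Cacna1a, Cacna1b, Cacna1c, Cacna1e, Cacna1i, Cacnb3, Scn2b and Cacng7.

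**Figure D2:**
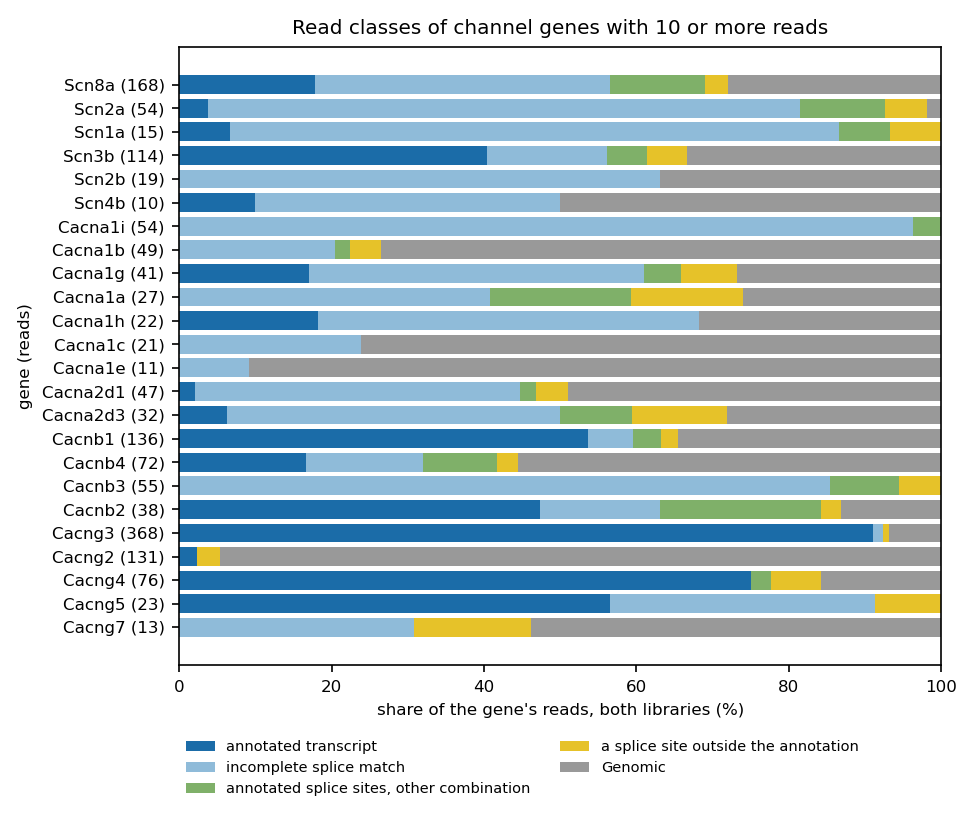
Share of each gene's reads in the 5 classes the authors assigned, in percent of both libraries' reads, for 24 channel genes with 10 or more reads (number of reads in brackets). Cacng3 was read almost wholly as annotated transcripts, Cacna1i and Cacnb3 mostly as incomplete ones, and Cacng2 almost wholly as Genomic.

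Genomic reads were the other large class. They made up 490 of the 2282 channel gene reads, and 439 of these (89.6%) lay between the stop codon and the end of the gene. The median gene had 28.1% Genomic reads, beside 2.56% over all genes, and in 6 of the 25 (24.0%, beside 6.18%) they were over 50%. Cacng2 was the extreme case: 124 of its 131 reads were Genomic, all past the stop codon, and 7 spanned its coding sequence. Without Genomic reads its mean level dropped from 70.9 to 3.89 RPM. Cacna1b had 36 such reads among 49, Cacna1c 16 among 21, Cacna1e 10 among 11 and Cacnb4 40 among 72. Without them the means were 7.07, 3.11, 0.495 and 18.4 RPM, scaled in the same way. In that setting Cacna1a had 11.4 RPM, above Cacna1b, the reverse of their order with all reads. Cacna1i then had 31.8 RPM and Cacna1g 17.4 RPM. In Cacnb1, 24 Genomic reads of replicate 1 lay past the stop codon inside the gene, and 23 of replicate 2 were placed by the authors' model just outside the annotated end. The share of annotated reads differed between libraries in none of the 18 channel genes with 10 or more reads in each (Fisher's exact test, Benjamini-Hochberg adjustment over 8526 genes, of which 0.0821% were called), and none passed at an unadjusted p under 0.05. In Cacna1a, Cacna1b, Cacna1i and Cacnb3 the test could show no difference, because neither library held an annotated read of them.

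A read was counted as spanning the coding sequence when its model reached from the start to the stop codon of a coding transcript with at least 70% of the gene's longest coding length. The ends of an annotated model are those of the annotation, so this describes the splice chain of a read and not its own ends. Such reads were 1258 of 1798 for auxiliary subunits and 73 of 484 (15.1%) for pore-forming subunits. The auxiliary roles differed: the share was 68.3% for gamma and 45.2% for calcium beta genes. In the alpha2delta genes it was 5.68% (5 of 88), below the pore-forming pool. Among pore-forming genes Scn8a supplied 55 spanning reads, 37 in replicate 1 and 18 in replicate 2, with up to 28 exons in a molecule. Scn2a had 9, Scn1a 3 and Scn3a 2. The alpha1 genes had 4 in all: 2 of Cacna1h, 1 of Cacna1b with 46 exons, and 1 of Cacna1g. At the other end, 328 of 368 Cacng3 reads (89.1%) spanned the coding sequence. The share varied among genes with short coding sequences, and the part of transcript length in this was not tested. Longest annotated transcripts were 5.51 kb in Cacng2, 2.21 kb in Cacng7 and 2.73 kb in Cacnb3, beside 2.78 kb in Cacng3. The share was 5.34% in Cacng2, 7.69% in Cacng7 (13 reads) and 9.09% in Cacnb3, below the 32.7% of Scn8a. In Cacng4 it was 81.6% and in Cacng5 78.3%. Scn2b, with a coding sequence of 645 bases in a transcript of 4.66 kb, had 19 reads, all of a single exon, and none spanned it.

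**Figure D3:**
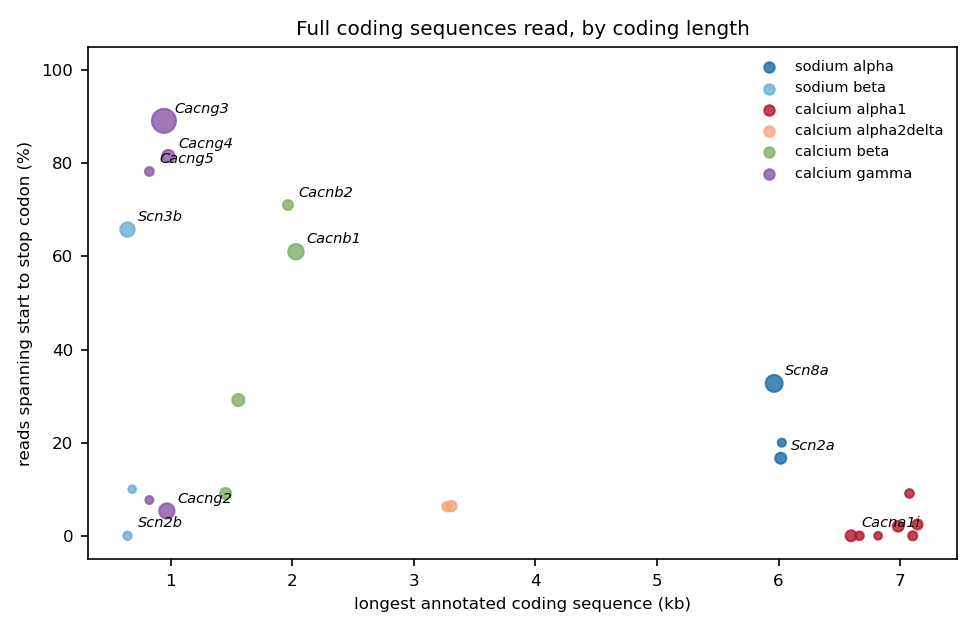
Share of reads that spanned the coding sequence, in percent, against the length of the longest annotated coding sequence in kb, for 24 genes with 10 or more reads; point area grows with the number of reads and colour gives the role. Alpha1 genes lay at 0 to 9.09% and Scn8a at 32.7%, while genes with short coding sequences ranged from 0 (Scn2b) to 89.1% (Cacng3).

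Over all reads the model length was a median of 95.4% of the gene's longest annotated transcript in each library, beside 97.6% and 97.5% for all genes. Cacng3, with 368 of the 2282 reads behind it, had a median of 100%. Taken gene by gene, the median over the 25 genes was 50.8%, beside 94.1% over all 10914 multi-exon genes with 10 or more reads. The longest annotated transcripts were a median of 5.51 and 3.43 kb in these sets. Single-exon models held a median of 46.3% of a channel gene's reads, beside 5.17%.

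Along the pore-forming genes reads were more numerous toward the 3′ end. In Scn8a, 59 reads covered the second exon, 78 the 18th, 94 the 26th and 160 the 27th, the last. These are positions along the longest coding transcript and not the exon names, such as 18A, used below. In Scn2a the last exon had 51 reads, the one before it 27 and the first 10. Cacna1i dropped from 54 reads over its last exon to 10 over the one before, and no read reached its first exon. Cacna1g had 39 reads over its last exon, 29 over the one before and 2 over the first.

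**Figure D4:**
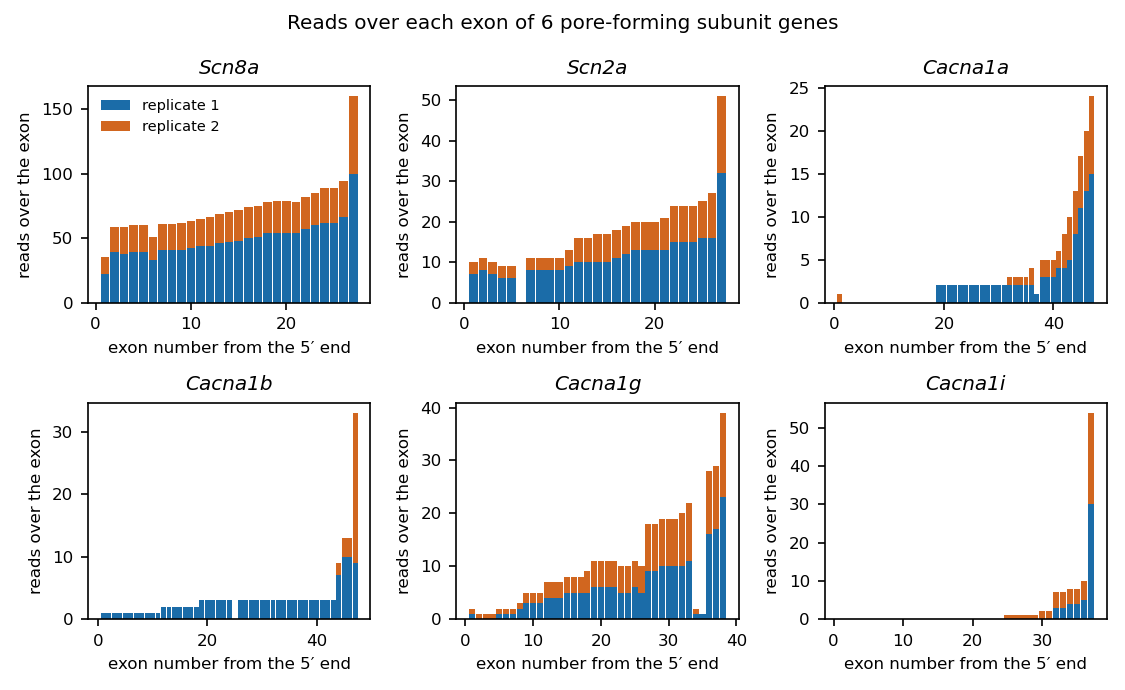
Number of reads over each exon, numbered from the 5′ end, of the longest coding transcript of 6 pore-forming subunit genes, stacked by library. Reads were most numerous over the last exon in all 6, and Scn8a kept 59 reads as far as its second exon while Cacna1i had 10 one exon from its end.

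The complete Scn8a molecules carry a known developmental choice. In several sodium channel genes the outer part of the first domain's voltage sensor is encoded by either of 2 exons of equal length, named neonatal (N) and adult (A) because brain tissue moves from the first to the second after birth. The adult exons, each of 92 bases, lie at chr15:100959603-100959694 in Scn8a and at chr2:65682690-65682781 in Scn2a (mm10, both on the plus strand). Their coding sequences, taken from the GENCODE M21 transcripts, are shown because most reads carried them; capitals mark the bases that differ between the genes.
Scn8a 5A: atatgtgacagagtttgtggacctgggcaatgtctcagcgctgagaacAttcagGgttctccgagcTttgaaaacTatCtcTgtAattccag
Scn2a adult: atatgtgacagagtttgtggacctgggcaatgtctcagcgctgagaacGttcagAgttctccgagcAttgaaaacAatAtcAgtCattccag
They differed at 7 bases. The adult exons of Scn2a and Scn3a were identical in all 92 bases.

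Most Scn8a molecules carried the adult exon. In replicate 1, 32 reads had 5A and 7 had 5N, and in replicate 2, 16 had 5A and 3 had 5N, so 5A made up 82.1% and 84.2% of reads with either exon (pooled 82.8%, 95% Wilson interval 71.1 to 90.4%). The libraries gave nearly the same share. A single read held both exons and a single read neither. As cassette exons in the test over all genes, 5A was included in 32 of 40 and 17 of 20 spanning reads and 5N in 7 of 40 and 4 of 20, with an adjusted p of 1 for each by Fisher's exact test. Scn2a showed the adult exon in all 9 reads across the site, 6 and 3 in the libraries. This pair fell below the minimum of 5 reads in each library and was added after its values were seen, and 0 of 9 allows a neonatal share of up to 33.3%. The Scn3a pair had 1 read of each exon.

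Because whole molecules were read, the exon choice can be set beside the first exon. Scn8a reads began mainly in either of 2 alternative first exons: the one with its splice donor at position 100871068 had 22 and 13 reads and the one at 100870743 had 15 and 7. Of the reads with the first of these, 30 had 5A and 4 had 5N. With the second, 17 had 5A, 4 had 5N and 1 had both. Both starts therefore led mostly to the adult exon. The annotated transcripts join the second start to 5N and not to 5A, and 15 reads (12 and 3) formed an unannotated chain of 27 exons. The most read full chain was Scn8a-203, with 14 of 38 full-chain reads (36.8%) in replicate 1 and 9 of 18 in replicate 2.

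A second pair in Scn8a decides whether a full channel can be made. Exon 18N (chr15:101023839-101023906) is known to carry a stop codon and to give a truncated protein in non-neuronal cells, and exon 18A (chr15:101024261-101024383) continues the channel.
Scn8a 18N: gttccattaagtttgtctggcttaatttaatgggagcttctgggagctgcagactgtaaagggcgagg
Scn8a 18A: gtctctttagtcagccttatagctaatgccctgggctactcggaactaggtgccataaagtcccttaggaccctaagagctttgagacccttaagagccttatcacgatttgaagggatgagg
All 78 reads with either exon, 54 and 24 in the libraries, had 18A, and 1 further read had neither. The 0 reads with 18N allow a share of up to 3.85%.

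The calcium beta subunits share a short exon in the linker between their conserved domains, which is exchanged for a longer one in some forms. Reads chose the short exon in Cacnb1 and Cacnb4 and the long one in Cacnb2. The exons of 20 bases are homologous, and capitals mark where each differs from Cacnb1 (mm10: chr11:98010627-98010646 minus, chr2:14968218-14968237 plus, chr15:98640959-98640978 plus and chr2:52465894-52465913 minus).
Cacnb1: ccaaacagaagcagaaatcg
Cacnb2: cAaaGcagaagcagaaGtcg
Cacnb3: ccaaGcagaagcaAaaGCAg
Cacnb4: cAaaacagaagcagaaaGTg
Of the 20 bases, Cacnb2 and Cacnb4 shared 17 with Cacnb1 and Cacnb3 shared 15. In each gene the annotated exon of 20 bases closest in sequence to that of Cacnb1 was taken, so these counts do not test homology. In Cacnb1, 50 and 30 reads had the short exon and 1 and 0 the long exon of 155 bases, which belongs to the muscle form (short exon in 98.8% of reads with either, interval 93.3 to 99.8%). In Cacnb4 all 22 reads (13 and 9) had this short exon and none the other annotated exon of 20 bases, which allows up to 13.6%. In Cacnb2 the order was turned: 17 and 8 reads had the long exon of 134 bases, none had the short one, and 5 had neither. The long Cacnb2 exon (chr2:14967942-14968075) reads as follows.
Cacnb2 long exon: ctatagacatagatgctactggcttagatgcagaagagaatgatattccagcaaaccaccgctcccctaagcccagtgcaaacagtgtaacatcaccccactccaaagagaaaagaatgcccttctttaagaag
It was included in 17 of 20 and 8 of 10 spanning reads, with an adjusted p of 1 between libraries. The short Cacnb2 exon in 0 of 30 reads allows a share of up to 10.0%. Only 3 Cacnb3 reads crossed the site, all without the short exon, and this exon was looked at after its values were seen.

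The ends of Cacnb1 also varied. The last exon began at position 98003362 in 33 of 54 spliced reads in replicate 1 and 21 of 33 in replicate 2, and at 98005314 in 20 and 12. These ends belong to Cacnb1-201 and Cacnb1-205, which held 26 of 49 full-chain reads (53.1%) and 19 in replicate 1, and 18 of 32 (56.3%) and 10 in replicate 2. The short exon of 20 bases was found with both ends, in 48 reads with the first and 31 with the second, while the 3 reads that skipped it all had the first. Cacnb2 molecules began mainly in either of 2 first exons, with donors at 14739763 (11 and 4 reads) and 14873945 (7 and 6 reads).

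Forms of the smaller subunits were more uniform. Cacng3-201 held 193 of 199 full-chain reads (97.0%) in replicate 1 and 133 of 139 (95.7%) in replicate 2, and Cacng4-201 30 of 36 (83.3%) and 26 of 28 (92.9%). Scn3b was divided more evenly, with Scn3b-201 at 13 of 34 (38.2%) and 9 of 24 (37.5%) and Scn3b-203 at 12 and 7 reads. None of the 6 genes with 10 or more full-chain reads in each library differed in its leading form (Fisher's exact test, adjusted over 6896 genes, of which 0.174% were called). None of the 4 cassette exons that could be tested differed either (3867 exons, 0.0259% called). None of these passed at an unadjusted p under 0.05.

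**Figure D5:**
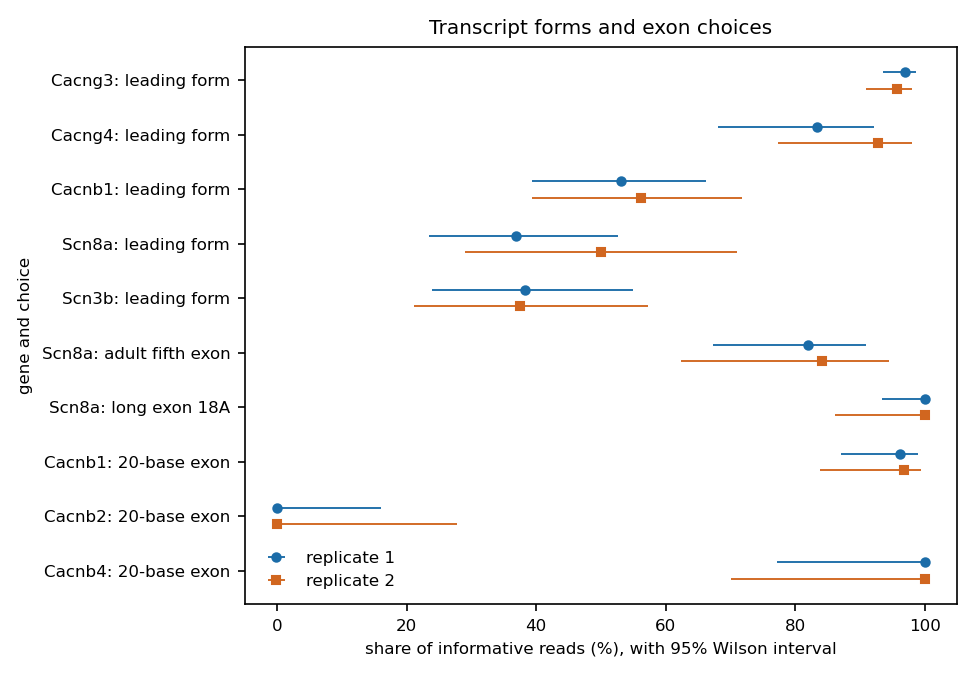
Share of informative reads, in percent with 95% Wilson intervals, for the leading form of 5 genes, 2 Scn8a exon choices and the short exon of 3 calcium beta genes, in replicate 1 (circles) and replicate 2 (squares). The intervals of the libraries overlap in each row, and the short exon lay at 96% or above in Cacnb1 and Cacnb4 and at 0 in Cacnb2.

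A few alpha1 choices could be seen at low depth. The fourth cassette exon tested, of 144 bases in Cacna1g (chr11:94414931-94415074, minus strand), was included in 1 of 11 spanning reads in each library (9.09%). In Cacna1a the last exon began at either of 2 acceptor sites 5 bases apart on chr8, a choice known to shift the reading frame of the channel's tail. The exon's start (chr8:84639238-84639267, plus strand) is shown with these 5 bases in capitals.
Cacna1a last exon: GGCAGtagttccgtcagtggaagcccagcc
Of 20 spliced reads, 12 (8 and 4) used the first site and kept the 5 bases, and 7 (4 and 3) used the second (35.0%, 95% Wilson interval 18.1 to 56.7%). This site was looked at after its values were seen. Both libraries held both versions.

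Models on the opposite strand overlapped many of these loci. They held 363 reads in replicate 1 and 370 in replicate 2, of which 483 were in the authors' Antisense class and 250 on annotated genes of the other strand. Replicate 2 had fewer mouse reads (753520 against 1072344), so these similar counts were a larger share of its reads. The channel genes' own reads were level, at 1249 and 1251 RPM. The difference in opposite-strand reads was not tested. Only 15 of the opposite-strand reads were on spliced antisense models in the Antisense class. The loci with most were Cacng8 with 147 reads (104 of them on annotated genes), Cacna1d with 64 and Cacna1e with 63, each more than the gene's own reads. How the strand of a read was set is not given in the sources used here.

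Proteins that bind or tune these channels were followed as a list of 37 partner genes. Of these, 27 had 10 or more reads, 13 higher and 14 lower in replicate 2, and 2 were called by the exact binomial test, beside 0.882% of all genes tested. Among these was Calm2, a gene of the calcium sensor calmodulin, which binds the tails of many channels: it had 4004 and 3446 RPM, lower in replicate 2 by a log2 ratio of -0.22 (adjusted p = 1.04e-06). Calm3 had 2086 and 1993 RPM and was not called. Of the 5 oligodendrocyte markers, 4 were also lower in replicate 2. Snap25, a vesicle fusion protein that binds presynaptic calcium channels, had 1308 and 1137 RPM, and its partner Stx1a 892 and 841 RPM. Stac3, a muscle calcium channel adaptor, and the sperm channel genes Catsper1, Catsper3 and Catsper4 had no read.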

How the data were processed

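RNA of the left cerebral cortex was read as long reads in 2 libraries of 1 group. The deposited tables give, per transcript model and library, raw read counts made by the authors, with each model's gene, class, exon number and length; exon coordinates come with them, on mm10 with GENCODE M21 per the file headers. Aligner settings and the instrument were not given in the sources used here. Counts were summed per gene and scaled to 1000000 mouse reads (RPM). Mouse reads numbered 1072344 and 753520, after 14936 and 8856 spike-in reads were left out. A model's coordinates follow the annotation where it matches, so lengths are those of models and not of reads. Values of overlapping or near-identical genes are uncertain, as each read is assigned to a single gene.

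Genes with 10 or more reads were compared by the two-sided exact binomial test, with log2 ratios at a pseudocount of 0.5 reads. Read classes, leading chains and cassette exons (pooled inclusion of 5 to 95%) with 10 or more reads in each library were compared by Fisher's exact test. p-values were adjusted by Benjamini-Hochberg over all features and called under 0.05. With 1 group, edgeR's quasi-likelihood test could not be fitted. Scripts were tested on simulated data. Tools were Python 3.11.15, scipy 1.17.1, bedtools 2.31.1 and, for scaling alternatives, R 4.3.3 with edgeR 4.0.16 and DESeq2 1.42.0. Genes with 10 or more reads were named with both values; among partners the 5 with most reads, those called and those with no read were named; exon pairs needed 5 reads in each library. Results for some genes and sequences are not reported here. The members and lists were chosen with earlier results of these data known.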

Additional observations from a re-analysis of the deposited data

How the results depend on the processing

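No channel gene was called between libraries under any of the 8 alternatives: TMM factors, DESeq2 size factors, annotated transcripts alone, no Genomic reads, overlapping models counted together, no read minimum, 50 or more reads, and a pseudocount of 2 reads. The pseudocount enters the log2 ratio alone, so changing it could not change a call. Cacng5 kept its direction wherever it was tested, with adjusted p from 0.230 to 0.628. Classes, forms and exons gave no call under their alternatives either. The summed level of 1250 RPM was 1024 RPM on annotated transcripts alone and 1043 without Genomic reads. The summed level ranged from 1249 to 1251 without either replicate. Of the 25 genes' levels, 24 moved by more than 1 SD on annotated transcripts alone (22 of the 25 were lower) and 18 without Genomic reads. The partner genes called, 2 in the main test, numbered 3 with TMM or DESeq2 factors, 2 without Genomic reads or with overlapping models together, and 1 on annotated transcripts alone. The median completeness of 95.4% was 100% for spliced models alone. The 733 opposite-strand reads were 15 when only spliced antisense models were counted. On annotated transcripts alone, Scn8a 5A was included in 76.7% of spanning reads and 5N in 23.3%. The annotation joins the second Scn8a start to 5N and not to 5A, so this setting leaves out the 5A reads of that start. With overlapping models together, 6 of the 25 levels were lower and 1 was higher, Cacng4, from 42.3 to 42.8 RPM. Without a read minimum more genes enter the test. Apart from these settings and the TMM and DESeq2 factors, the shifts come with fewer reads or models entering each value. For levels on annotated transcripts alone and without Genomic reads, the total used for scaling was smaller as well. No paired analysis was possible because there is 1 group and so no contrast within a replicate number. Depth limits all shares here: between 11 and 54 reads stood behind each alpha1 gene named with RPM, and 10 behind Scn4b.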
